A study of Mus musculus with 15 samples.

Results

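The 10 genes described here belong to the tumor necrosis factor (TNF) and NF-kB pathway, and they were taken by name from the deposited table of 48709 genes. They are the cytokine Tnf, its receptors Tnfrsf1a and Tnfrsf1b, the canonical-arm genes Nfkb1, Rela, Nfkbia and Tnfaip3, and the non-canonical-arm genes Nfkb2, Relb and Map3k14. All 10 were found, and all 10 passed the filter on low counts, as did 16554 genes of the table. RNA was sequenced from pancreatic islets of 15 female NOD/ShiLtJ mice, an inbred strain in which immune cells enter the islets before autoimmune diabetes develops. The labels name no treatment and no engineered allele, and there were 3 mice at each of 5 ages, 4, 6, 8, 10 and 12 weeks. A diabetes-free strain was not among these libraries, so age and disease stage cannot be told apart. The islets were freed with collagenase, purified on a density gradient and picked by hand, so that a library also holds whatever other cells remained with the islets.

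TNF is a cytokine made mainly by macrophages and T cells. Its first receptor, TNFR1 (Tnfrsf1a), is present on most cell types, whereas the second, TNFR2 (Tnfrsf1b), is found mainly on leukocytes and endothelial cells. In the canonical arm, the IKK complex marks the inhibitor IkBa (Nfkbia) for destruction and so frees dimers of p50 (from Nfkb1) and RelA for entry into the nucleus. Nfkbia and Tnfaip3, which encodes the ubiquitin-editing enzyme A20, are targets of these dimers and also restrain them. In the non-canonical arm, ligands such as lymphotoxin and CD40 ligand stabilize the kinase NIK (Map3k14), which leads to processing of p100 (from Nfkb2) to p52 and its pairing with RelB. Much of this control acts on proteins, which mRNA levels do not show.

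Binding sites for these dimers are known in the promoters of several NF-kB genes, and the sequences just before the gene starts of 3 members are shown for that reason. They are RefSeq sequences on GRCm38.p6, written 5′ to 3′ on the strand of the gene, and capitals mark matches to the 10-letter kappaB consensus (3 G, a purine, any 2 bases, 2 pyrimidines, 2 C), searched on both strands with overlapping matches merged. The 250 bases before the gene start are chr12:55492648-55492897 for Nfkbia (minus strand), chr19:46304487-46304736 for the first of 3 listed starts of Nfkb2 (plus strand), and chr17:35202008-35202257 for Tnf (minus strand).
Nfkbia: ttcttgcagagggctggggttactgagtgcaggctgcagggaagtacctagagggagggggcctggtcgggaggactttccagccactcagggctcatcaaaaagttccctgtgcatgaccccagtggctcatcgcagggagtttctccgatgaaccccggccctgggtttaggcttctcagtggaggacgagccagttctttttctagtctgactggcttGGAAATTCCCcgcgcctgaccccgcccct
Nfkb2: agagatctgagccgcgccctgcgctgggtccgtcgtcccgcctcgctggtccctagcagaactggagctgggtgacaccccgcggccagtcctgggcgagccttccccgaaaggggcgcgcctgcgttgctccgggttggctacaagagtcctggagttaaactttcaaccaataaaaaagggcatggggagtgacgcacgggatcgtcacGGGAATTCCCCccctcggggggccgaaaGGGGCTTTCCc
Tnf: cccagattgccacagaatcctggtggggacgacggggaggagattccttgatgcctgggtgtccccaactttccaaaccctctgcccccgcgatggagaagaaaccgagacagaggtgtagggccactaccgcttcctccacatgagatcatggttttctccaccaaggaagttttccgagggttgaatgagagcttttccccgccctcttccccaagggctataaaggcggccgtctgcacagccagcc
The Nfkbia sequence held a match that began 29 bases before the gene start. The Nfkb2 sequence held a pair, beginning 39 and 11 bases before it. No match was found in the Tnf window. The search covered windows of 300 bases, from 250 before to 50 after each start, and 8 of the 10 members had a window in the table. Tnfaip3 was the third member with a match, and its matches began 125 and 12 bases before one of its starts. The windows of Tnf, Tnfrsf1a, Tnfrsf1b, Rela and Map3k14 had none. Of all 32851 promoter windows in the table, 8.46% held at least 1 match. A match describes letters only, and Nfkb1 and Relb were not among the entries.

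Library totals ran from 25407492 to 41616275 counts, with a median of 28004882. Values per mouse are given as CPM (reads of a gene relative to the scaled size of its library) after TMM scaling, and 3 counts correspond to between 0.0753 and 0.128 CPM. Hormone and other endocrine markers were abundant in every library, with a sum over 8 genes of 147500 to 337900 CPM, so the labelled tissue was present throughout. Leukocyte markers were higher in the older mice. Their sum over the 22 markers found, of 23 listed, was 88.7 to 340 CPM in the 6 mice of 4 and 6 weeks and 1168 to 2693 CPM in the 6 mice of 10 and 12 weeks. The 3 mice of 8 weeks stood at 223, 785 and 1117 CPM. Since each library is bulk RNA, more cells of a type and more RNA per cell cannot be told apart.

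All 10 members were higher at 10 and 12 weeks than at 4 and 6 weeks, and both arms rose. Tnfrsf1b rose 11.1-fold, Tnf 6.92-fold, Tnfaip3 6.01-fold, Relb 5.34-fold and Nfkb2 4.89-fold, whereas Tnfrsf1a, Nfkb1 and Rela rose between 1.53-fold and 1.70-fold. Nfkbia and Map3k14 lay between these sets, at 3.17-fold and 2.40-fold. The call, an adjusted p under 0.05 in edgeR's quasi-likelihood test with Benjamini-Hochberg adjustment over all genes tested, was met in this direction by 30.1% of all genes and in either direction by 63.8%. The median log2 change was 1.98 over the 10 members and -0.05 over all genes. In each of the 10 genes the lowest of the 6 older mice exceeded the highest of the 6 younger mice, a pattern found in 19.7% of all genes. The same 10 members were called higher at 12 against 4 weeks, a call made for 26.3% of all genes in that direction, and in the joint test over the 5 ages, which 56% of all genes passed.

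**Figure D1:**
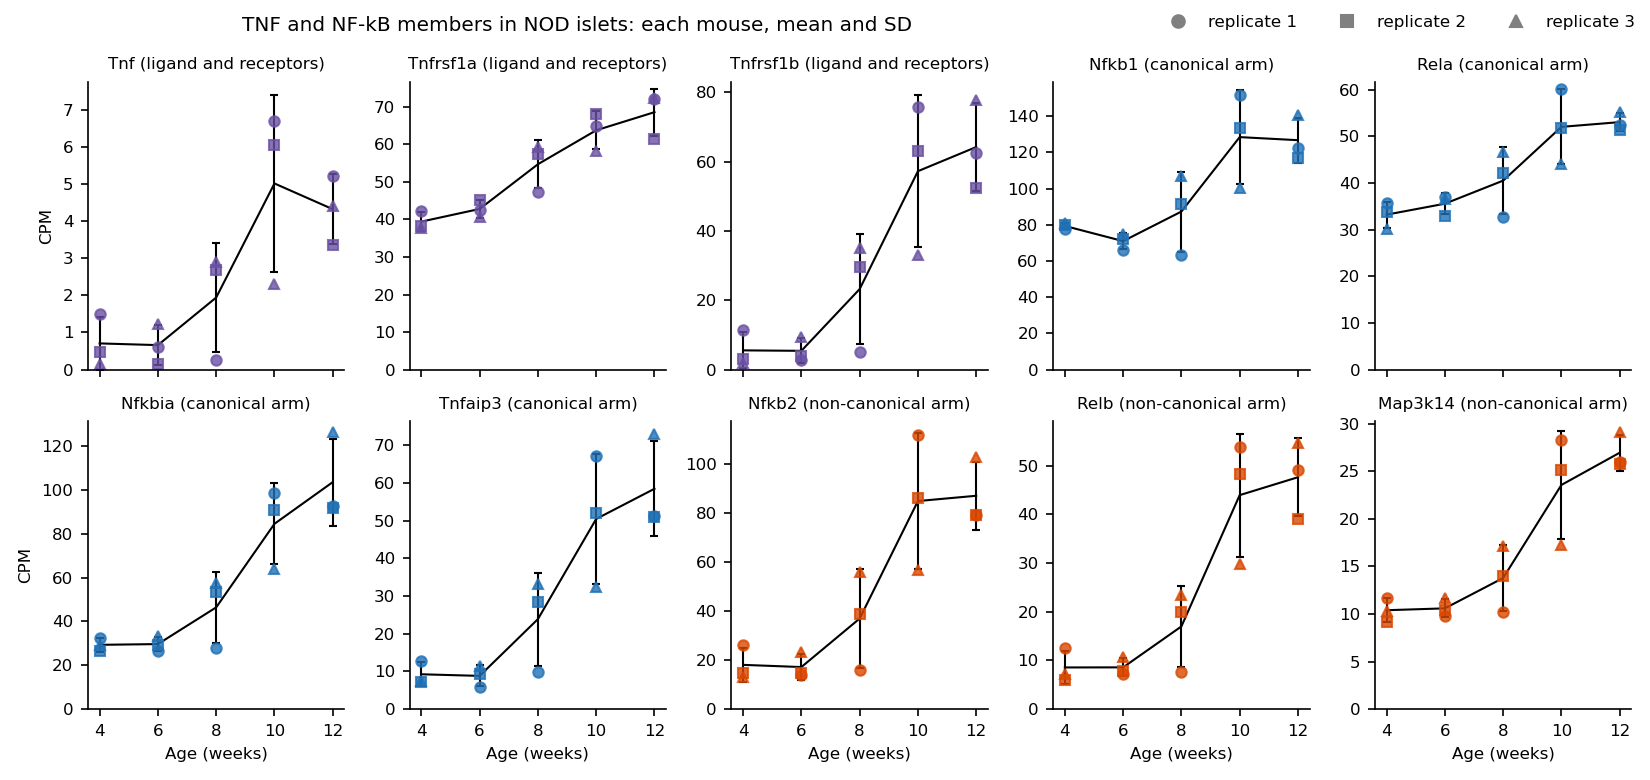
CPM (linear axis from 0, a separate scale in each panel) of the 10 members against age in weeks. Each symbol is a mouse, with the shape giving its replicate number, and the line and bars give the mean and SD of 3 mice. Replicate 1 at 8 weeks lies with the mice of 4 and 6 weeks in 9 panels, and replicate 3 is the lowest mouse at 10 weeks in all 10.

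The ligand was scarce. Tnf (ENSMUSG00000024401, chr17:35199381-35202007, minus strand, GRCm38) had between 4 and 241 counts per library. Its level, with mice in order of replicate number, was 1.496, 0.47 and 0.145 CPM at 4 weeks, 0.594, 0.158 and 1.22 at 6, 0.255, 2.67 and 2.89 at 8, 6.69, 6.05 and 2.29 at 10, and 5.22, 3.34 and 4.40 at 12. Replicate 1 at 8 weeks stayed among the young mice, while the other two at that age lay above every young mouse. The change at 10 and 12 against 4 and 6 weeks was 2.79 on the log2 scale (SE 0.626, edgeR adjusted p = 0.00181, higher in 6 of 6 older mice). At 12 against 4 weeks it was 2.61 (SE 0.881, edgeR adjusted p = 0.0244). That call was lost without replicate 2 or 3 at 4 weeks or replicate 1 or 3 at 12 weeks, with edgeR adjusted p between 0.0519 and 0.0868.

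The receptors differed in level and in the size of their change. Tnfrsf1a (ENSMUSG00000030341, chr6:125349362-125362484, plus strand) was present at all ages, at 37.7 to 45.2 CPM with a median of 41.5 in the younger mice and 58.2 to 72.3 CPM with a median of 66.6 in the older ones. It rose by 0.69 on the log2 scale (SE 0.0689, edgeR adjusted p = 1.88e-05), with little spread between mice of an age. Tnfrsf1b (ENSMUSG00000028599, chr4:145213463-145246870, minus strand) stood at 11.5, 3.16 and 1.92 CPM at 4 weeks, 2.77, 3.89 and 9.53 at 6, 5.18, 29.5 and 34.98 at 8, 75.8, 62.9 and 33.0 at 10, and 62.6, 52.4 and 77.7 at 12. Replicate 1 at 4 weeks and replicate 3 at 6 weeks were the highest of the young mice, and these also had the largest leukocyte marker sums of the young mice, 302 and 340 CPM against 88.7 to 179 in the other 4. The log2 change of Tnfrsf1b was 3.47 (SE 0.536, edgeR adjusted p = 0.000138), the largest of the 10 members.

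Among the canonical-arm members the transcription factor subunits had the smallest fitted changes and the inhibitors the largest. Nfkb1 (ENSMUSG00000028163, chr3:135584655-135691547, minus strand), which encodes p105 and p50, was at 65.9 to 80.9 CPM with a median of 76.1 in the younger mice and at 100.1 to 152 CPM with a median of 128 in the older ones. Its log2 change was 0.77 (SE 0.122, edgeR adjusted p = 0.000168). Rela (ENSMUSG00000024927, chr19:5637483-5648130, plus strand), which encodes the activating subunit p65, was at 30.2 to 37.1 CPM with a median of 34.7 in the younger mice and at 44.1 to 60.2 CPM with a median of 52.0 in the older ones. It had the smallest change of the 10, 0.61 on the log2 scale (SE 0.0923, edgeR adjusted p = 0.000118), and still the groups did not overlap.

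Nfkbia (ENSMUSG00000021025, chr12:55489411-55492647, minus strand), whose sequence before the gene start is shown above, encodes the inhibitor that holds the dimers in the cytoplasm. It stood at 32.5, 26.3 and 29.2 CPM at 4 weeks, 26.7, 29.1 and 33.3 at 6, 28.0, 53.6 and 57.8 at 8, 98.9, 91.1 and 63.8 at 10, and 92.7, 91.7 and 127 at 12. The 6 young mice and replicate 1 at 8 weeks lay within a narrow band, and the remaining mice lay well above it. The log2 change was 1.67 (SE 0.174, edgeR adjusted p = 2.08e-05). Tnfaip3 (ENSMUSG00000019850, chr10:19000910-19015657, minus strand) was at 12.9, 7.27 and 7.56 CPM at 4 weeks, 5.82, 9.28 and 11.3 at 6, 9.88, 28.5 and 33.2 at 8, 67.0, 51.9 and 32.4 at 10, and 51.2, 51.1 and 73.0 at 12. With a log2 change of 2.59 (SE 0.305, edgeR adjusted p = 3.12e-05), this inhibitor rose more than any other canonical-arm member.

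The non-canonical arm rose in all of its 3 members. Nfkb2 (ENSMUSG00000025225, chr19:46304737-46312090, plus strand) stood at 26.0, 14.9 and 13.3 CPM at 4 weeks, 13.7, 14.5 and 23.2 at 6, 16.0, 38.8 and 55.9 at 8, 112, 85.9 and 56.8 at 10, and 79.1, 79.0 and 103 at 12. Its log2 change was 2.29 (SE 0.295, edgeR adjusted p = 4.66e-05). Nfkb2 overlaps Psd on the opposite strand, and whether the counting used strand is not given in the sources used here. Psd itself was lower in the older mice, at 62.3 to 79.6 CPM at 4 and 6 weeks and 34.8 to 50.9 CPM at 10 and 12 weeks, the opposite direction to Nfkb2.

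Relb (ENSMUSG00000002983, chr7:19606217-19629438, minus strand), the partner of p52, stood at 12.5, 6.07 and 7.13 CPM at 4 weeks, 7.17, 7.86 and 10.7 at 6, 7.58, 19.995 and 23.3 at 8, 53.9, 48.3 and 29.7 at 10, and 49.1, 39.0 and 54.7 at 12. All 6 older mice lay above all 9 mice of 4, 6 and 8 weeks, as they also did for Nfkbia, Nfkb2 and Map3k14. The margin was narrow for Map3k14, at 17.21 against 17.17 CPM, and for Nfkb2, at 56.8 against 55.9 CPM. The share of all genes with this pattern was not computed, so it cannot be read as particular to these members. The log2 change was 2.42 (SE 0.277, edgeR adjusted p = 2.77e-05). Map3k14 (ENSMUSG00000020941, chr11:103219762-103267472, minus strand), which encodes the kinase NIK, was at 9.19 to 11.7 CPM with a median of 10.4 in the younger mice and at 17.2 to 29.1 CPM with a median of 25.9 in the older ones. Its log2 change was 1.26 (SE 0.139, edgeR adjusted p = 2.45e-05), smaller than that of the other two members of its arm.

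**Figure D2:**
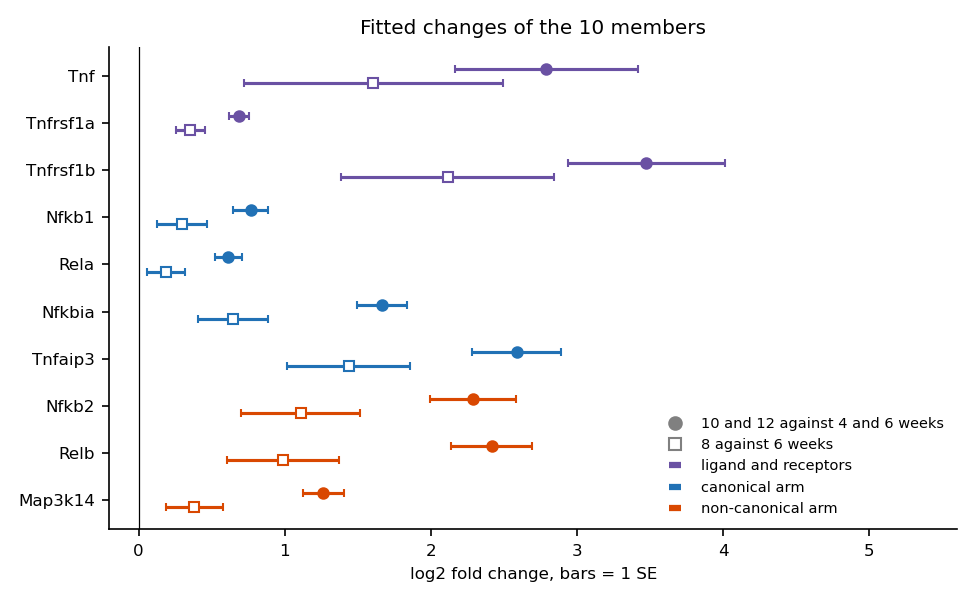
Fitted log2 fold changes of the 10 members with bars of 1 SE, at 10 and 12 against 4 and 6 weeks (filled circles) and at 8 against 6 weeks (open squares), coloured by role. The filled symbols of the canonical arm (0.61 to 2.59) and of the non-canonical arm (1.26 to 2.42) interleave.

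The arms were compared by their fitted changes and by the ratios of related genes within each mouse, as a description without a test of the difference. The log2 changes of the canonical arm ran from 0.61 (Rela) to 2.59 (Tnfaip3), and those of the non-canonical arm, from 1.26 (Map3k14) to 2.42 (Relb), fell inside that range. The third canonical subunit, Rel, which is no member, rose by 2.57 on that scale, a larger fitted change than that of Relb or Nfkb2, so the ratios below hold for the named pairs and not for the arms as a whole. The log2 ratio of Relb to Rela in CPM rose from -2.04 ± 0.36 in the younger to -0.22 ± 0.22 in the older mice (mean ± SD, n = 6 each). No mouse of one group reached the other, with the younger at -2.46 to -1.51 and the older at -0.57 to -0.01. The log2 ratio of Nfkb2 to Nfkb1 rose from -2.14 ± 0.41 to -0.59 ± 0.14, again with no overlap. For the receptors, Tnfrsf1b to Tnfrsf1a rose from -3.20 ± 0.99 to -0.17 ± 0.36. Total scaling cancels in these ratios, but the mix of cell types does not.

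Levels of different genes were compared as deposited TPM (a share of transcripts scaled to a fixed total), which divide by transcript length. At 4 weeks Nfkbia was the most abundant member at 35.9 ± 5.16 TPM (SD, n = 3), followed by Tnfrsf1a at 29.3 ± 2.97, Nfkb1 at 24.5 ± 0.635, Rela at 23.5 ± 2.59 and Nfkb2 at 10.6 ± 4.50. Relb, Map3k14, Tnfrsf1b and Tnfaip3 followed between 4.28 and 2.48 TPM with overlapping mice, and Tnf was last at 0.844 ± 0.874. Nfkbia overlapped Tnfrsf1a, and Nfkb1 overlapped Rela, whereas Rela and Nfkb2 were apart.

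At 12 weeks Nfkbia stood at 167 ± 43.2 TPM, above every other member in all mice. TPM serve here to compare genes at one age and not to size changes between ages. Their fixed total also holds the endocrine RNA, whose markers were lower in the older mice. Nfkb2 at 67.0 ± 15.1, Tnfrsf1a at 66.7 ± 8.70, Nfkb1 at 51.5 ± 8.36, Rela at 49.2 ± 4.97, Tnfrsf1b at 42.6 ± 11.03, Relb at 31.0 ± 6.76 and Tnfaip3 at 20.5 ± 5.85 then formed a series in which each gene overlapped its neighbour. Map3k14 at 10.4 ± 1.40 and Tnf at 6.63 ± 1.44 stood apart below them. The order of Nfkb2 and Nfkb1 differed between the mice of up to 8 weeks and the older mice. Their log2 TPM ratio was below 0 in all 9 mice of 4, 6 and 8 weeks, and between 0.10 and 0.48 in the 6 older mice. At 8 weeks the ratio was -1.06, -0.32 and -0.02 in replicates 1, 2 and 3, so that replicate 3 was nearly at equal TPM. Relb stayed below Rela in all 15 mice on this scale, with a ratio of at most -0.53.

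**Figure D3:**
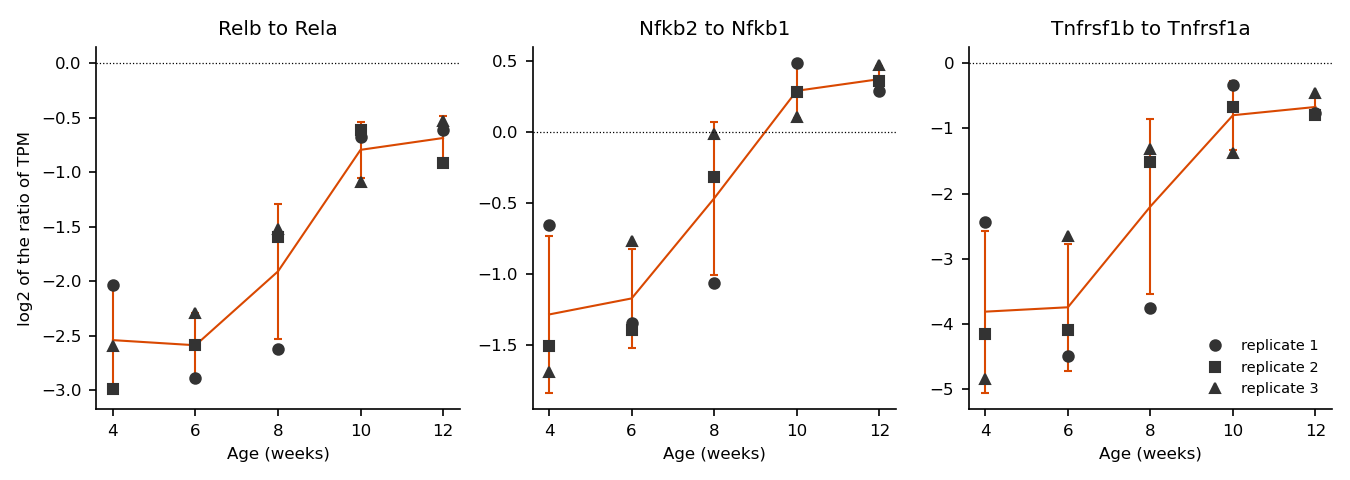
Log2 ratio of deposited TPM within each mouse against age in weeks for 3 pairs of related genes, with the mean and SD of 3 mice in orange. The dotted line marks equal TPM, which Nfkb2 to Nfkb1 exceeds in all 6 mice of 10 and 12 weeks, and which the other pairs reach in none.

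Each interval between neighbouring ages was also tested. From 4 to 6 weeks none of the 10 was called, with log2 changes between -0.16 (Nfkb1) and 0.12 (Tnfrsf1a), none at an unadjusted p under 0.05 and none called by DESeq2. Over all genes 0.0906% were called in edgeR. The fold of at least 1.5 and the p under 0.05 that the study used were also applied, here to the fold and unadjusted p of the edgeR fit, which is not the study's own test, so membership can differ from the study's. At this looser threshold the interval held 0 members and 2.9% of all genes.

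From 6 to 8 weeks the log2 changes of all 10 members were above 0 in the fit, from 0.19 (Rela) to 2.11 (Tnfrsf1b), but none was called, and 0% of all genes were called in edgeR. The smallest edgeR adjusted p among the members was 0.172, for Tnfrsf1a and Tnfaip3. By unadjusted p under 0.05 there were 6 members and 2983 genes, and DESeq2 called 2 members (Tnfrsf1a and Tnfaip3) and 547 genes. The looser threshold took in 5 members, Tnfrsf1b, Nfkbia, Tnfaip3, Nfkb2 and Relb, against 8.4% of all genes in that direction.

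The calls in this interval changed when 1 mouse was left out. Replicate 1 at 8 weeks lay within or below the range of the 6 younger mice for 9 of the 10 members, all but Tnfrsf1a, while replicates 2 and 3 lay above that range for all 10. Its leukocyte marker sum of 223 CPM also lay within the range of the younger mice. Its B cell markers (43.6 CPM against at most 22.1), mesenchymal markers (575 against at most 527) and immediate-early genes (455 against at most 320) lay above the younger mice. Without it, 6 members were called higher at 8 against 6 weeks, Tnfrsf1a, Tnfrsf1b, Nfkbia, Tnfaip3, Nfkb2 and Relb, with edgeR adjusted p between 0.0277 and 0.0417, beside 4.29% of all genes. Without replicate 2 at 8 weeks 0 members and 0 of all genes were called, and without replicate 3 at 8 weeks 0 members and 1 gene. Replicate 1 was singled out by its low values for these same members. Leaving it out therefore raises their change by construction, and the 6 calls carry no weight as a test. Replicate 3 at 8 weeks had already entered the range of the mice of 10 and 12 weeks for 6 members, Tnf, Tnfrsf1a, Tnfrsf1b, Nfkb1, Rela and Tnfaip3, whereas replicate 2 had done so for Tnf alone.

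From 8 to 10 weeks Nfkb1, Nfkbia, Relb and Map3k14 were called higher, 2 from each arm, against 8.4% of all genes. Relb rose by 1.37 (SE 0.374, edgeR adjusted p = 0.0334), Nfkbia by 0.87 (SE 0.24, edgeR adjusted p = 0.0348), Map3k14 by 0.77 (SE 0.194, edgeR adjusted p = 0.029) and Nfkb1 by 0.56 (SE 0.172, edgeR adjusted p = 0.0452), on the log2 scale. Neither the ligand nor a receptor was called, and their log2 changes were 1.37 for Tnf, 0.22 for Tnfrsf1a and 1.30 for Tnfrsf1b. The looser threshold took in 5 members, Nfkbia, Tnfaip3, Nfkb2, Relb and Map3k14, against 11.1% of all genes. These calls were not stable to the choice of mice or test. The calls over all genes moved with them, from 2776 in either direction in the main fit. Without replicate 1 or 2 at 8 weeks or replicate 1 or 2 at 10 weeks 0 members and 0 of all genes were called. Without replicate 3 at 8 weeks the calls were 6 members and 3409 genes, and without replicate 3 at 10 weeks 7 members and 5612 genes. The exact test of edgeR called 0 members and 140 genes. DESeq2 called 6 members, Nfkb1, Rela, Nfkbia, Nfkb2, Relb and Map3k14, and 4139 genes.

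From 10 to 12 weeks no member was called by edgeR or DESeq2 and none had an unadjusted p under 0.05, with log2 changes between -0.22 (Tnf) and 0.29 (Nfkbia). In edgeR 0% of all genes were called, 1244 had an unadjusted p under 0.05 and DESeq2 called 12. At the looser threshold the interval held 0 members and 2.17% of all genes.

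The members rose with the leukocyte markers over the 15 mice, but not every member did so within every age. At 4 weeks the mouse with the largest marker sum (302 CPM) had the lowest Nfkb1 of its age. At 6 weeks the mouse with the largest sum (340 CPM) had the lowest Tnfrsf1a. Over the 15 mice the Pearson correlation of log2 CPM with the mean of the 22 leukocyte markers ran from 0.883 (Nfkb1) to 0.991 (Tnfrsf1b). After each age mean was removed it ran from 0.575 (Tnfrsf1a) to 0.977 (Tnfrsf1b), with 0.933 for Nfkb2, 0.908 for Tnfaip3, 0.878 for Relb and 0.736 for Rela. These mice share age and cell mix, so the values describe the set and carry no test. With the leukocyte marker mean as a covariate, 0 of the 10 members and 0 of all genes were called at 10 and 12 against 4 and 6 weeks. Since the marker sums of the younger and older mice do not overlap, age and leukocyte content cannot be told apart in that fit.

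**Figure D4:**
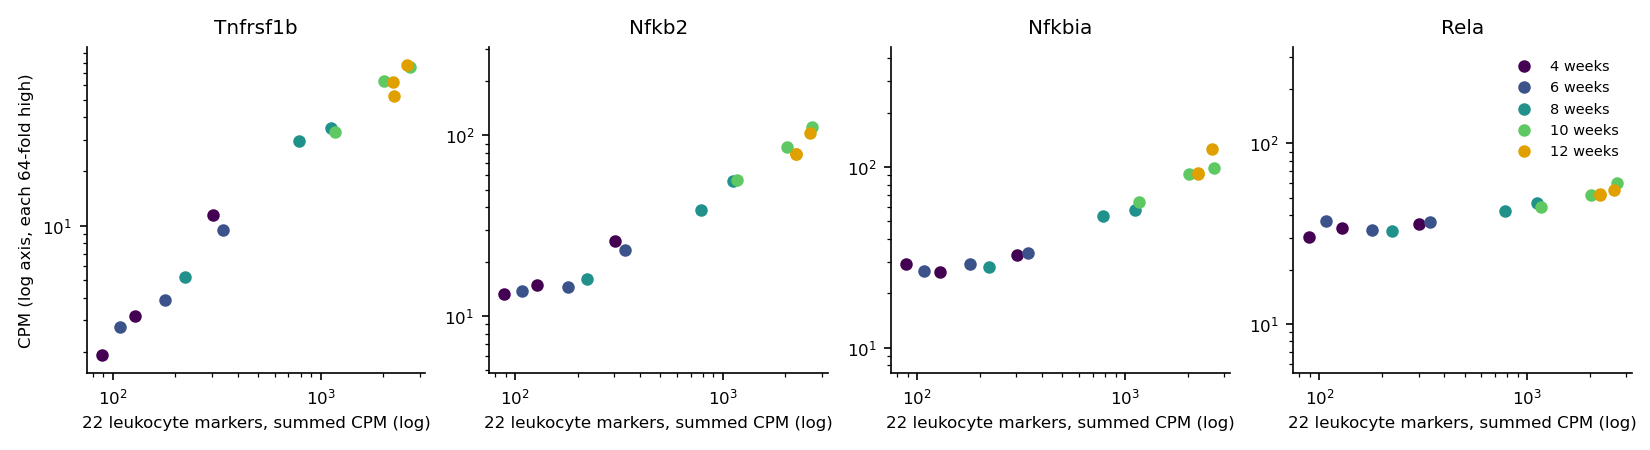
CPM of Tnfrsf1b, Nfkb2, Nfkbia and Rela (log axes, each spanning the same 64-fold range) against the summed CPM of 22 leukocyte markers (log axis), each point a mouse coloured by age. Tnfrsf1b climbs with the markers over the whole range. Rela also rises with them (correlation of 0.941 with the marker mean), but only between 30.2 and 60.2 CPM.

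The members also tracked each other. Over the 15 mice the highest correlation of log2 CPM was that of Nfkb2 with Relb (0.992), and the lowest that of Tnf with Tnfrsf1a (0.850). With the age means removed, Nfkb2 and Relb remained highest at 0.962. Among all 14584 genes with a mean of at least 1 CPM, the 3 most like Tnfrsf1b were Laptm5, Lcp2 and Slfn2, with correlations of 0.998 to 0.999 over 15 mice. Those most like Nfkb2 were Nfkbie, Ppp1r18 and Gimap4 (0.997 to 0.998), and those most like Relb were Thy1, Pik3ap1 and Tmsb4x (0.996 to 0.997). Tnfaip3 was most like Lyn, Arhgef6 and Pik3cd (0.995 to 0.996), and Nfkbia most like Fam107b, Nfkbid and Inpp4b (0.993 to 0.996). For Map3k14 they were Shisa5, Rps26 and Ostf1 (0.993 to 0.994). The remaining members had lower maxima. Nfkb1 was most like Aebp2, Orai1 and Adamts10 (0.984 to 0.987), Rela most like Dpysl3, Wipf1 and S1pr3 (0.986), Tnf most like Tfec, Gpr141 and Atp10a (0.976 to 0.977), and Tnfrsf1a most like Metrn, Pak1 and Serpina1b (0.976 to 0.977).

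Beyond the members, a list of 59 other genes of the pathway was examined by role. Of these, 58 were tested and 50 were called at 10 and 12 against 4 and 6 weeks, 47 higher and 3 lower. Over all genes 63.8% were called in either direction and 30.1% were called higher, and the latter share also stands beside the counts by role below. The list was chosen with earlier results of these data known. Their median log2 change was 1.25. The exception to testing was the chemokine Ccl20, which had at most 4 counts in any library and was dropped by the filter. Scaling moved the small changes. With library totals in place of TMM the median of all genes shifted from -0.05 to 0.18, the share of calls that were higher went from 47.2% to 76.2%, and the list had 54 calls, all higher. All 10 members rose under either scaling.

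Upstream of the receptors, Zfp36, which encodes the protein that destabilizes Tnf mRNA, rose by 1.97 on the log2 scale (SE 0.174, edgeR adjusted p = 1.4e-05), and Rhbdf2, which encodes a cofactor for release of TNF from the cell surface, rose by 1.75 (SE 0.214, edgeR adjusted p = 3.67e-05). Of 12 receptor-proximal genes 9 rose, led by the ubiquitin ligase Birc3 at 2.30 and the adaptor Traf5 at 1.23. Map3k7 (-0.16) and Tab1 (-0.41), which encode the kinase TAK1 and its partner, fell in this fit. Under library totals neither was called, with Map3k7 at 0.07 and Tab1 at -0.19. With DESeq2 size factors in the edgeR fit Tab1 (-0.36) was still called lower and Map3k7 (-0.11) was not. Rel, the subunit used most by lymphocytes, rose from 4.27 to 7.44 CPM (median 5.25) to 18.0 to 47.3 CPM (median 32.4), and the IKK kinase Ikbkb rose by 0.68. Of 9 other genes listed as inhibitors or IkB relatives 8 rose, with the largest log2 changes in Bcl3 (2.85) and Nfkbid (2.59). Bcl3 and Nfkbid encode relatives of IkBa, and whether they restrain the pathway was not tested.

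Among the other genes of the non-canonical arm, all 6 ligands rose. Ltb, which encodes lymphotoxin beta, was at 0.543 to 4.68 CPM in the younger mice and 37.2 to 88.9 CPM in the older ones, a log2 change of 5.03 (SE 0.663, edgeR adjusted p = 5.29e-05). Cd40lg was near 0 in the younger mice, at 0 to 0.355 CPM against 1.96 to 3.65 CPM in the older ones, so the size of its fold depends on the prior count. Of 4 receptors 3 rose. Tnfrsf13c, the BAFF receptor of B cells, was at 0 to 0.749 CPM in the younger mice and 8.54 to 32.4 CPM in the older ones, and Cd40 rose by 2.64 (SE 0.429, edgeR adjusted p = 0.000192). Of the 3 cytoplasmic regulators listed, 0 were called in edgeR, with 0 at an unadjusted p under 0.05. Traf3, which encodes the adaptor that keeps NIK low, stood at -0.02, Chuk (IKK alpha) at -0.10 and Otud7b at -0.09. DESeq2, and its size factors in the edgeR fit, gave no call for them either, but with library totals all 3 were called higher, at 0.13 to 0.21.

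Targets of both arms rose. Of 13 canonical targets tested 11 rose, with the largest changes in Traf1 (log2 change 4.21, SE 0.705, edgeR adjusted p = 0.000238) and the adhesion molecule Vcam1 (3.57, SE 0.56, edgeR adjusted p = 0.000152). Sod2, which encodes mitochondrial superoxide dismutase, fell by 0.19 but stood at 0.04 under library totals, and Cxcl2 was not called. With DESeq2 size factors in the edgeR fit Sod2 was still called lower, at -0.14. All 5 non-canonical targets rose. The B cell chemoattractant Cxcl13 went from 0.128 to 1.68 CPM (median 0.599) in the younger mice to 47.3 to 115 CPM (median 72.2) in the older ones. Madcam1, an adhesion molecule of mucosal and lymphoid vessels, was at 0 to 0.158 CPM in the younger mice and 3.69 to 16.5 CPM in the older ones. The leukocyte marker sums given above moved with all of these groups, and their part in the changes was not tested beyond the covariate fit, in which 0 of the 58 genes were called.

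**Figure D5:**
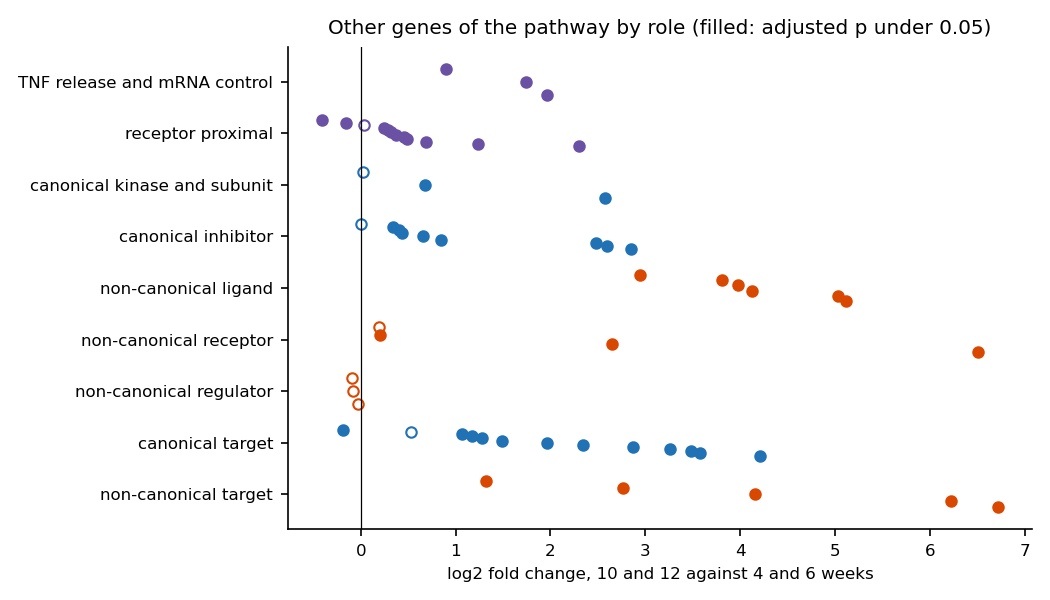
Log2 fold change at 10 and 12 against 4 and 6 weeks of the 58 other pathway genes tested, in rows by role. Filled symbols mark an adjusted p under 0.05 in edgeR. The 3 non-canonical regulators lie near 0 with TMM scaling (0.13 to 0.21 with library totals), between non-canonical ligands and targets that all rose.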

How the data were processed

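Islet RNA of 15 NOD females was sequenced by the authors as paired-end reads of polyadenylated RNA, which were put through the default trimming, alignment and gene counting of CLC Genomics Workbench 23.0. The submitters' processing notes name build mm10 (GRCm38). The deposited counts are whole reads per gene with no normalization, and the deposited TPM are divided by transcript length and sum to 1000000 per library. The columns of RPKM and CPM (30 per-sample columns) and the authors' own comparisons (fold changes and p-values) were not used.

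The counts were tested in R 4.3.3 with the package edgeR 4.0.16. Genes were kept by filterByExpr, which left 16554 of 48709, scaled by TMM and fitted by glmQLFit with a mean per age over all 15 mice and no covariate. Contrasts were tested by glmQLFTest with Benjamini-Hochberg adjustment over all genes tested, and a gene was called at an adjusted p under 0.05. Log2 CPM used a prior count of 2. The pipeline was tested on simulated data. Python 3.11.15 and matplotlib 3.10.9 drew the figures. Mice were grouped by the age in the labels, and each is a separate animal. CPM values near the floor of 3 counts are limited by counting error.

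Alternatives were DESeq2 size factors, library totals, no filter, edgeR's exact test, DESeq2 1.42.0, a fit of the compared ages alone, the replicate number as a block, the leukocyte marker mean as a covariate, each mouse left out in turn, and for ratios a prior count of 0.5 and TPM. The members, pathway genes and marker lists were chosen with earlier results of these data known. Genes named in the text are all 10 members, in each role the 2 called genes with the largest change and any dropped by the filter, and for each member the 3 genes with the highest correlation to it. Genes named in addition (Map3k7, Tab1, Sod2, Cxcl2, Traf3, Chuk, Otud7b and Psd) were chosen after their values were seen. Myeloid marker Itgam was not analysed here.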

Additional observations from a re-analysis of the deposited data

How the results depend on the processing

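All 10 members stayed called at 10 and 12 against 4 and 6 weeks under 21 of 22 alternatives, and their log2 changes kept their direction there. With the leukocyte marker mean as a covariate 0 members were called at this contrast, at 12 against 4 weeks and over the 5 ages, and 0 pathway genes. In that fit the log2 changes reversed at 10 and 12 against 4 and 6 weeks for Tnf (-1.92), Tnfrsf1b (-0.90) and Nfkb2 (-0.077), and at 12 against 4 weeks for Tnf (-2.39), Tnfrsf1b (-1.16), Nfkb1 (-0.11) and Nfkb2 (-0.28), with edgeR adjusted p of 0.267 to 0.975. Age and the covariate cannot be told apart. At 8 against 6 weeks, DESeq2 called 2 members and 547 of all genes, and leaving out mice gave 0 to 6 members and 0 to 797 genes. At 10 against 8 weeks, where 4 members and 2776 of all genes were called, DESeq2 called 6 members and 4139 genes. With the replicate block, the covariate and the compared ages alone 0 members and 0 of all genes were called. The exact test of edgeR called 0 members and 140 genes. With a mouse left out the counts were 0 to 7 members and 0 to 5612 genes. The cause was not tested. Leaving out a mouse gave 9 to 10 members at 12 against 4 weeks and over the 5 ages, where Tnf was the gene lost. At 6 against 4 and 12 against 10 weeks 0 members were called under any alternative run.

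The replicate numbers 1 to 3 in the labels mark different animals. Deviations from the age means correlated between -0.643 and 0.509 over 30 same-number pairs (median -0.088, 7 over 0.1), with no common direction. Whether mice of one number shared a handling step is not given in the labels and was not tested. With the number as a block, 9 members were called over the 5 ages, 10 at both wide contrasts, 0 at 10 against 8 weeks (as were 0 of all genes) and 50 pathway genes. The changes in log2 ratio from younger to older mice were 1.82 for Relb to Rela, 1.55 for Nfkb2 to Nfkb1 and 3.03 for Tnfrsf1b to Tnfrsf1a, and each moved by less than 1 SD between mice under the alternatives. Depth limits Tnf, Cd40lg and Madcam1 in the young mice, where counts were few.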

Other observations

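Other marker lists moved with age beside the pathway. Summed endocrine markers (8 genes) lay at 303500 to 337900 CPM at 4 and 6 weeks and 147500 to 205800 CPM at 10 and 12 weeks. Mesenchymal markers (7 genes) lay at 286 to 527 CPM in the younger and 749 to 1913 CPM in the older mice, without overlap. Endothelial markers (5 genes) ran from 464 to 537 CPM in the younger and 526 to 664 CPM in the older mice. T cell markers (8 genes) were at 2.65 to 36.4 CPM in the younger and 191 to 462 CPM in the older mice, B cell markers (6 genes) at 5.32 to 22.1 and 175 to 460 CPM, and myeloid markers (7 genes found) at 75.8 to 242 and 624 to 1339 CPM. The pan-leukocyte gene Ptprc stood at 4.52 to 39.6 and 178 to 444 CPM.

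Acinar markers (6 genes) ran from 1098 CPM in a mouse of 4 weeks to 13270 CPM in a mouse of 10 weeks. Their medians were 1237, 4380, 2671, 5246 and 7291 CPM at 4, 6, 8, 10 and 12 weeks, and the ranges of the ages overlapped. Whether acinar content played a part in the members' changes was not tested. Immediate-early genes (6 genes), which respond to handling, were higher at the later ages, as the members were, with medians of 296 and 265 CPM at 4 and 6 weeks and 393, 382 and 401 CPM at 8, 10 and 12 weeks, and their part in the members' changes was not tested. Intestinal markers (6 genes) were at 37.7 CPM in replicate 2 of 6 weeks and 259 CPM in replicate 1 of 12 weeks, and at most 1.74 CPM in the other 13 mice. Replicate 2 of 6 weeks was the lowest mouse of its age for Tnf and Rela and the highest for Tnfrsf1a, and replicate 1 of 12 weeks was the highest of its age for Tnf. Their part in the members' values was not tested.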
